A study of Caenorhabditis elegans with 2 samples.

Results

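Of the 1431 peaks in the conservative list of MAB-9 binding sites, 273 (19.1%) lay on autosomes between the starts of a divergent pair of protein-coding genes. A peak was taken when its summit was a promoter summit and the nearest annotated start on its left was on the minus strand and the nearest on its right on the plus strand, both within 2000 bp. Promoter summits are those at most 1000 bp upstream or 250 bp downstream of the closest start of a protein-coding transcript. These 273 members are 40.1% of the 680 autosomal promoter peaks, and the 407 other autosomal promoter peaks are the set they are compared with. The binding profile came from chromatin immunoprecipitation with sequencing on whole worms at the L1 stage, of strain RW12257. In this strain mab-9 was edited at its own locus by CRISPR so that its protein carries TY1, EGFP and 3xFLAG tags. Larvae hatched without food after bleaching were 6 hours old, and chromatin was fragmented by sonication and pulled down with an antibody to GFP. The 2 biological replicates, each a biosample of its own, form a single group. No read counts come with the peak lists, so depth is unknown, and control libraries were not analysed here, so no background from untagged larvae can be set beside the values.

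MAB-9 belongs to the T-box family, transcription factors that bind DNA through a conserved domain and are named after Brachyury, and it is known in Caenorhabditis elegans for the hindgut, the male tail and motor neurons. In a divergent pair the genes are read away from each other, so that the short stretch between their starts serves as the upstream region of both. Many genes of this worm are trans-spliced, which removes the first bases of the transcript, so the true site of initiation can lie upstream of an annotated start.

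The 4 members with the strongest signal are printed to show what lay under the summits, as plus-strand sequence of the ce11 build from the RefSeq assembly, from 100 bp left to 100 bp right of the summit and only as far as the nearest start. Capitals mark ACGCAG (a 6-mer frequent at peaks of these data), the GC box GGGCGG and the heat shock pattern TTCNNGAA on either strand. They cover chrIII:10759153-10759306, chrII:11759333-11759533, chrIII:1619055-1619255 and chrIV:4749964-4750164, in the order shown.
K01G5.10/tasp-1: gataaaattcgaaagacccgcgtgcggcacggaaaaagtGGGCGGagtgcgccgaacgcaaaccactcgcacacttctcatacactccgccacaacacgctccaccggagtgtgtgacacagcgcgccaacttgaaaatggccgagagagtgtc
F44E5.4/F44E5.5: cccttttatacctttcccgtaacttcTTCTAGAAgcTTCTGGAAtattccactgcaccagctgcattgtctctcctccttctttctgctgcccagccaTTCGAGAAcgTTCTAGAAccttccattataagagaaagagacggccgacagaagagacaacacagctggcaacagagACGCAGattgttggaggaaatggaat
Y22D7AL.10/hsp-60: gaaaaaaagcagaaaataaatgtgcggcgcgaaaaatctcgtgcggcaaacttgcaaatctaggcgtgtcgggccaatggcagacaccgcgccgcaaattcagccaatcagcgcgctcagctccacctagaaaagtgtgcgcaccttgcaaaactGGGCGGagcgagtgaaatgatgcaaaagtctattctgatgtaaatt
rpl-20/Y17G9B.5: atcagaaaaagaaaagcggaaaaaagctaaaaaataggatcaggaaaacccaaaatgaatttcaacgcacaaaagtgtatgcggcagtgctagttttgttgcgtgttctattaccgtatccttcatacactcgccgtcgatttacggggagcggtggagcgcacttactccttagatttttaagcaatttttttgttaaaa
The window between the hsp-70 family genes F44E5.4 and F44E5.5 held 4 matches of TTCNNGAA and 1 of ACGCAG. The windows at K01G5.10/tasp-1 and Y22D7AL.10/hsp-60 each held 1 GGGCGG, and the window at rpl-20/Y17G9B.5 held none of the 3 patterns.

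Windows of 3 members with 2 or more matches of GAGAGAGA are shown, with it or its reverse complement in capitals. They were picked for high counts of the repeat on chromosomes II to V. GAGAGAGA was in 16 of the 273 members, so these windows are not typical. They cover chrIV:4406053-4406253, chrIII:4721830-4722030 and chrIII:8043893-8044093 of ce11, plus strand.
Y24D9A.7/ell-1: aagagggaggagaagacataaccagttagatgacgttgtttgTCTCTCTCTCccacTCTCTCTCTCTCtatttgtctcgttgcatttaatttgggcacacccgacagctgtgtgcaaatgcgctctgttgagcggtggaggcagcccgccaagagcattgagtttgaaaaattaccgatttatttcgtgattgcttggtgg
emb-5/acy-1: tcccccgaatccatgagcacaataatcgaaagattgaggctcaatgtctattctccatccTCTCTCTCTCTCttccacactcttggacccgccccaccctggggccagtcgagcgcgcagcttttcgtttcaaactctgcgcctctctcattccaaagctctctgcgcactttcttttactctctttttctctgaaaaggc
K12H4.6/K12H4.5: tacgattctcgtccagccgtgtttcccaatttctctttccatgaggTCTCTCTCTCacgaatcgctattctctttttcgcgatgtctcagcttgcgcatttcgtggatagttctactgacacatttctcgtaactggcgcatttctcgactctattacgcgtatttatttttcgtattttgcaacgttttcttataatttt
The counts of overlapping matches in these windows were 5, 3 and 2, and in all 3 the repeat read as TC on the plus strand.

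Of the 15 strongest members, 4 had a cytosolic ribosomal protein gene at their interval and 4 a chaperone gene. The signal given here is the authors' own value for each peak, in units that they do not state, from the pooled list and, in parentheses, from the ranked list of each replicate. The highest, 622.7 (317.9 in replicate 1 and 302.9 in replicate 2), lay on chromosome III from 10759137 to 10759375, 54 bp from the start of tasp-1 (WBGene00010480), which encodes a threonine aspartase, and 731 bp from that of K01G5.10 (WBGene00010481). It was followed by the peak on chromosome II from 11759309 to 11759573, with 607.2 (331.4 and 286.5), 122 bp from F44E5.4 (WBGene00009691) and 229 bp from F44E5.5 (WBGene00009692). These 2 genes of the hsp-70 family are near-identical copies in their coding sequence. How reads that match both were treated is not stated, and the signal at their interval is uncertain to that extent. The peak on chromosome III from 1619042 to 1619238 had 578.0 (296.6 and 280.3) and lay 226 bp from Y22D7AL.10 (WBGene00021248) and 587 bp from hsp-60 (WBGene00002025), the mitochondrial chaperonin gene. In these 3 peaks the value of replicate 1 was the higher one.

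The peak on chromosome IV from 4749980 to 4750172 had 575.6 (286.3 and 287.6), 286 bp from rpl-20 (WBGene00004432), a gene of the large ribosomal subunit, and 176 bp from Y17G9B.5. The peak at C47E8.4/hsp-90 had 473.5 (213.7 and 264.3), 391 bp from the cytosolic chaperone gene hsp-90 and 284 bp from C47E8.4. The peak at cct-8/Y55F3AR.2 had 459.7 (286.8 and 165.9), 431 bp from cct-8, a subunit gene of the cytosolic chaperonin. Here replicate 1 was well above replicate 2. The other 9 of the 15 strongest members lay at F56G4.6/wbp-4 (466.4), rpl-15/K11H12.8 (462.6), ifet-1/rps-1 (452.4), cux-7/C07H6.2 (423.8), nhl-2/tag-340 (415.4), drr-2/set-16 (410.0), R107.5/cls-2 (365.7), rpl-12/lin-54 (348.5) and ntl-11/Y73F8A.27 (347.6). Among their genes, rpl-15, rps-1 and rpl-12 encode ribosomal proteins, set-16 a histone methyltransferase, cls-2 a CLASP microtubule protein, lin-54 a DNA-binding subunit of the DREAM complex and ntl-11 a subunit of the CCR4-NOT deadenylase. All 15 were in both replicates' thresholded lists.

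Over the 273 members the pooled signal ran from 3.20 over a median of 135.9 to 622.7. The other autosomal promoter peaks ran from 3.02 over a median of 105.2 to 719.2. In replicate 1 the 268 matched members had a median of 71.5, against 58.1 for 387 other promoter peaks, and in replicate 2 the 266 matched members had a median of 65.3, against 51.0 for 386. The members' median was the higher one in both replicates. The quartiles of the pooled signal overlapped, at 90.8 and 188.8 for the members and at 80.4 and 155.6 for the other promoter peaks, and no test of the difference was run. Of the 100 strongest peaks of the whole list of 1431, 28 were among the 273 members and 37 among the 407 other promoter peaks. At or above the list's median signal, which divides the whole list evenly, were 190 of the 273 members. The same count was not made for the other promoter peaks.

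Of the members, 265 had a peak of their own in both ranked lists. Their replicate signals lay within 2-fold at 257 of 265 (97.0%), with a median log2 ratio of replicate 1 over replicate 2 of 0.15 and an SD of 0.43 across members. The ratio ranged from -1.21 to 1.43, replicate 1 was higher at 173 and replicate 2 at 92, and the Spearman rho was 0.795. The rho is a description across peaks of the same 2 libraries, which were chosen for ranks that repeat. The plot of the replicates' signals shows the members along the same band as the other promoter peaks.

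**Figure D1:**
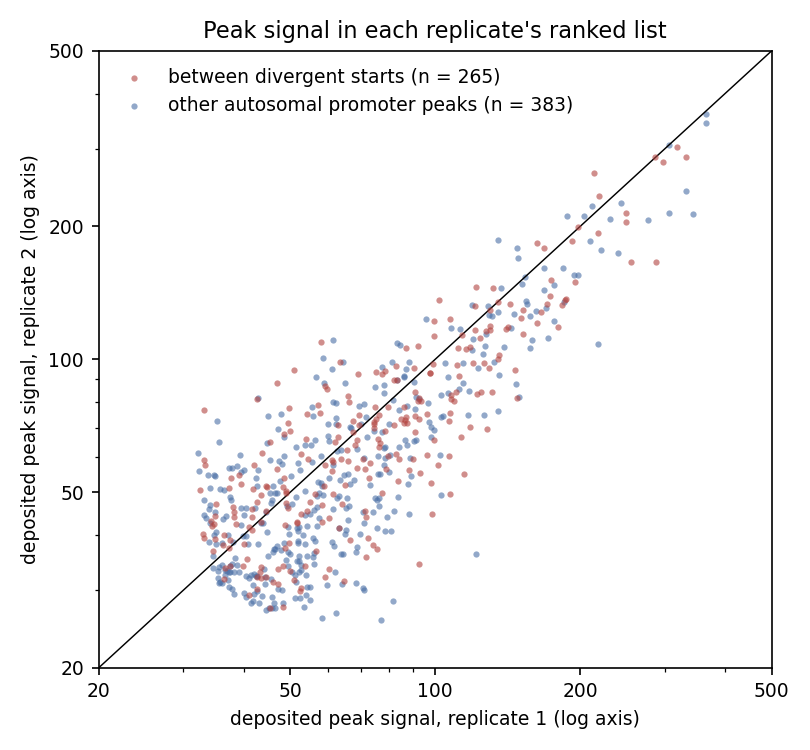
Deposited signal of each peak in the ranked list of replicate 1 (x, log axis) and replicate 2 (y, log axis), for 265 members between divergent starts and 383 other autosomal promoter peaks matched in both lists, with the line of equal values. Both sets spread around the line, and more members lie below it (173) than above it (92).

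Members were found in both replicates' own thresholded lists more often than the other promoter peaks. This held for 164 of 273 members (60.1%, exact binomial 95% interval 54.0 to 65.9%), against 175 of 407 other promoter peaks (43%, 38.1 to 48.0%) and 39.1% of all conservative peaks. In neither list were 50 of 273 members (18.3%, 13.9 to 23.4%), against 120 of 407 other promoter peaks (29.5%, 25.1 to 34.2%) and 34.4% of all peaks. Of the remaining members, 25 were in the list of replicate 1 only and 34 in that of replicate 2 only. The intervals of the members and the other promoter peaks do not overlap for either share. They treat peaks as independent and cover counting error only, and the higher signal of the members moves with these shares, a part in the result that was not tested. Among members with their nearer start within 100 bp, 65.5% of 87 were in both lists, against 40% of 55 other promoter peaks at that distance. Over 100 and up to 200 bp the shares were 50% of 92 members and 51.3% of 78 other promoter peaks, and the median pooled signals were 117.3 and 116.2, so the difference was not seen in that bin. Over 200 and up to 300 bp they were 70.6% of 51 members and 49.3% of 69 others. Over 300 and up to 500 bp the shares were again close, 51.9% of 27 members and 49.2% of 59 others, and beyond that, up to 1000 bp, they were 68.8% of 16 and 42.5% of 87.

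The distances to both starts were among the values that chose the members, so they are given as a description. The nearer start was a median of 158 bp from the summit (10th to 90th percentile 32.2 to 367.8 bp) and the farther one 419 bp (160.2 to 1352.6 bp). Both starts were within 200 bp at 47 members, within 500 bp at 158 (57.9%) and within 1000 bp at 217. The nearer start was the left one at 133 of 273 members (48.7%), where left and right are only the orientation of the reference sequence. At 25 members the peak itself covered both starts and at 105 it covered 1. The peak was 320 bp wide at 230 members. Narrower ones included the strongest member, K01G5.10/tasp-1, with 239 bp, and C08F8.9/cpt-2 with 80 bp. Whether a peak covers a start depends on its width as well as on its place. The summit was nearer to the midpoint of the interval than to either start at 147 members (53.8%).

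**Figure D2:**
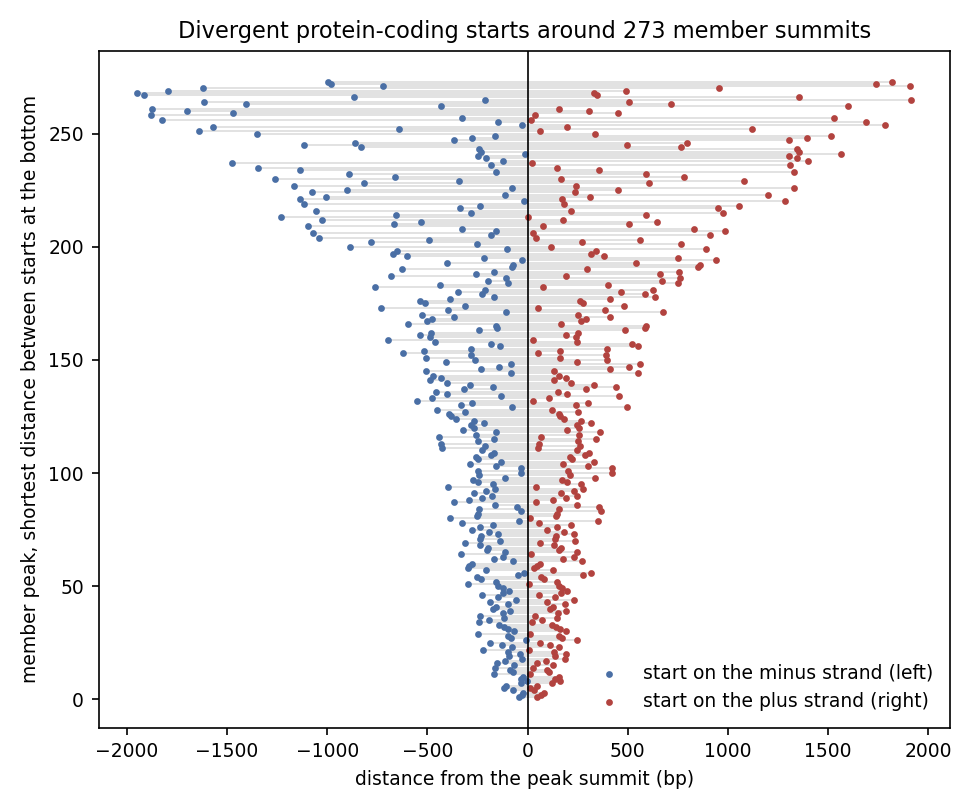
Each row is 1 of the 273 members, ordered by the distance between its starts with the shortest at the bottom, and the x axis is the distance in bp from the peak summit. Blue points are the minus-strand start on the left and red points the plus-strand start on the right. The nearer start was within 100 bp at 87 members and over 100 and up to 200 bp away at 92.

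The distance between the starts ran from 89 bp at C01G10.10/C01G10.9 (signal 154.7, with 83.1 in replicate 1 and 61.2 in replicate 2) to 2818 bp at lin-13/C03B8.3 (18.3), with a median of 609 bp. The next shortest were ears-2/uncp-18 with 92 bp (115.2, with 49.4 and 71.6), where ears-2 encodes a glutamyl-tRNA synthetase, and C01A2.1/W05H12.4 with 106 bp (124.9, with 72.8 and 53.9). The next longest were Y24D9A.7/ell-1 with 2722 bp (90.6, with 41.7 and 44.0) and W09B6.4/pod-2 with 2633 bp (147.6, with 76.4 and 74.6), where pod-2 encodes acetyl-CoA carboxylase. The lin-13/C03B8.3 peak had no peak of its own in either ranked list.

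The limits of the rule cut through a continuous range. Just inside the limit of 2000 bp were F13H8.8/F13H8.2 (farther start 1948 bp, signal 177.8) and svop-1/famh-136 (1915 bp, 86.1), and just outside it were a peak between lin-13 and C03B8.3 (2020 bp, 97.5) and clec-113/hmg-6 (2055 bp, 83.6). In all, 89 promoter peaks met the rule but for the farther start. Just inside the limit of 1000 bp for the nearer start were the member at lin-13/C03B8.3 (998 bp, 18.3) and Y24D9A.7/ell-1 (982 bp, 90.6), and just outside it were EGAP1.1/ubq-1 (1100 bp, 18.9) and bed-1/dyf-17 (1106 bp, 114.2). Of the rest of the comparison set, 259 had upstream summits without a divergent start on the far side and 59 had summits downstream of a start.

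Divergent intervals held more peaks per base than the rest of the autosomal promoter sequence. The stretches where a summit would meet the rule add up to 2.37 Mb and held 115 members per Mb, against 21.3 peaks per Mb in the other 19.1 Mb of promoter sequence, a ratio of 5.42. Against upstream sequence only, with 348 other peaks in 13.8 Mb or 25.3 per Mb, the ratio was 4.56. In the replicates' own lists the ratio to all other promoter sequence was 6.46 in replicate 1 and 6.71 in replicate 2. By construction each base between divergent starts is upstream of 2 genes. The 2 kinds of sequence were not matched for distance to a start, so the ratios partly follow from the rule. The other peaks also include 89 with a divergent start beyond the distance limit.

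The 273 members fell in 265 intervals, 9.03% of the 2936 autosomal divergent intervals with starts up to 3000 bp apart (exact 95% interval 8.01 to 10.1%). The share changed with the distance between the starts. It was 15 of 267 intervals (5.62%, 3.18 to 9.10%) up to 200 bp, 66 of 475 (13.9%, 10.9 to 17.3%) over 200 and up to 400 bp and 53 of 405 (13.1%, 9.96 to 16.8%) up to 600 bp. It was 9.94% up to 1000 bp, 7.30% up to 1500 bp, 7.64% up to 2000 bp and 13 of 411 (3.16%, 1.69 to 5.35%) up to 3000 bp. The 95% intervals for both classes between 200 and 600 bp lie above those of the shortest and the longest class. The distance limits leave less of a wide interval open to a member, so the last class is partly set by the rule. A short interval offers fewer bases to a summit, so the share of the shortest class is also bounded by its length. The shares are per interval, not per base, and do not show that a distance was preferred. The median signal of members was 158.0 in the shortest class, between 123.6 and 149.0 in the next 5 and 95.2 in the longest. The median distance between starts was 609 bp for members and 808 bp for 2671 intervals without one.

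**Figure D3:**
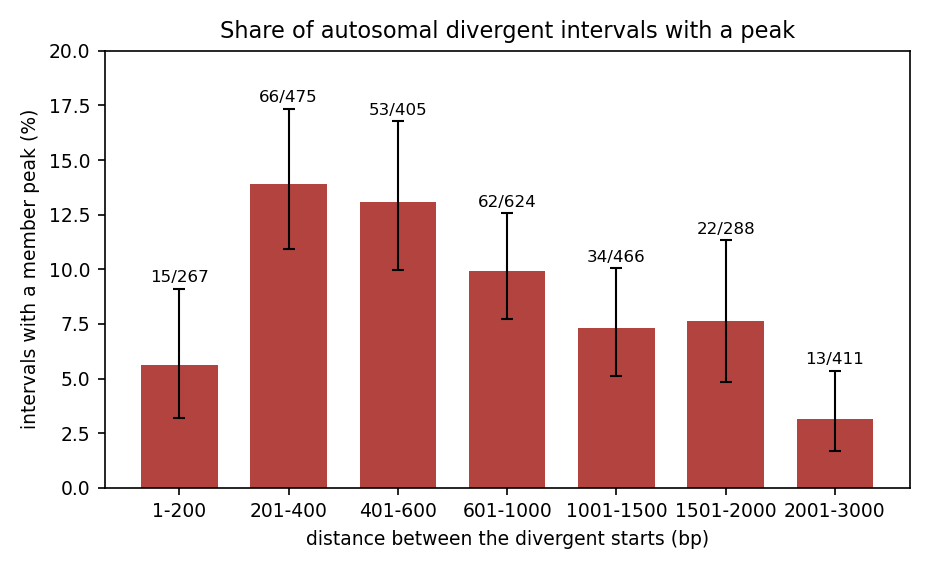
Share of autosomal divergent intervals that held a member (y, percent) by the distance between the starts (x, bp), with the count of intervals above each bar and exact binomial 95% intervals as error bars. The bars peak at 13.9% for distances over 200 and up to 400 bp and are lowest at 3.16% for the longest class. Shares are per interval and are not adjusted for the bases open to a summit.

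The share also differed among chromosomes. On chromosome III 71 of 472 intervals held a member (15%, exact 95% interval 11.9 to 18.6%), against 46 of 814 on chromosome V (5.65%, 4.17 to 7.47%), and these intervals do not overlap. The shares were 10.9% on chromosome I, 8.26% on chromosome II and 7.91% on chromosome IV. Chromosomes III and V were set side by side as the highest and the lowest share. Other promoter peaks were not counted by chromosome, so a difference common to all peaks cannot be told apart from one of divergent intervals. The numbers of members were 57, 49, 75, 46 and 46 on chromosomes I to V. The median signal was lowest on chromosome V (113.3) and highest on chromosome IV (159.8), an order that did not follow the shares.

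In 8 intervals there were 2 members and in no interval 3 or more. At ntl-11/Y73F8A.27 one member lay 112 bp from the start of ntl-11 (347.6, with 194.7 and 149.5 in the replicates) and the other 238 bp from that of Y73F8A.27 (175.5, with 77.6 and 92.4). At ecps-1/atx-2 the signals were 172.7 (75.4 and 93.5) and 152.5 (76.1 and 66.0), the second one 75 bp from atx-2, the ataxin-2 gene. At his-72/rpt-6 a member lay 77 bp from his-72, a histone H3.3 gene, with 81.1 (38.5 and 42.3), and another 240 bp from the proteasome subunit gene rpt-6, with 85.1 (47.1 and 31.0). At emb-5/acy-1 one lay 344 bp from emb-5, an SPT6 gene, with 86.7 (37.6 and 53.9), and the other 165 bp from the adenylyl cyclase gene acy-1, with 77.4 (48.7 and 37.4). In these 4 intervals each start had a member of its own on its side. In the other 4 intervals, F44E5.4/F44E5.5, ect-2/cdl-1, F54F2.6/zfp-1 and F29B9.11/jmjd-1.2, the weaker member overlapped the stronger one and had a signal of 3.20, 8.15, 4.61 and 16.3. Together with the member at lin-13/C03B8.3 (18.3), these were the 5 members that overlapped a stronger peak, and every member that overlapped none had at least 60.7.

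Among the gene lists, cytosolic ribosomal proteins, chaperones, translation factors, respiratory chain and membrane trafficking genes had the largest shares with a member, and C-type lectins, chemoreceptors and F-box proteins were among those with the smallest. Of 5793 genes at autosomal divergent intervals, 530 (9.15%) had a member in theirs. For 271 of them the start was the nearer one at some member, and 259 were only ever the farther partner, which an assignment to the nearest start does not count. The 21 gene lists below were chosen with results of these data known, and their shares are given beside 9.15% without a test. In all, 94 members had a gene of any list at their interval and 13 had listed genes on both sides.

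**Figure D4:**
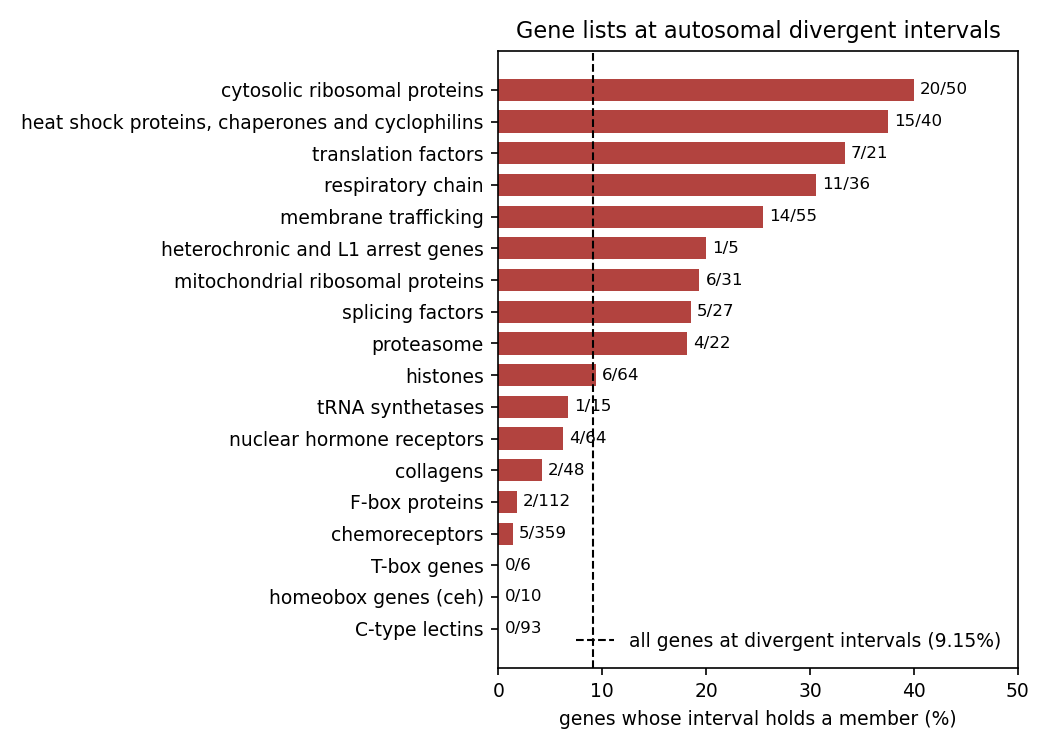
For each gene list with at least 5 genes at autosomal divergent intervals, the bar is the percentage of those genes whose interval held a member, with the counts beside it, and the dashed line is the share over all such genes (9.15%). Cytosolic ribosomal proteins stand highest with 20 of 50, and C-type lectins, homeobox and T-box genes are at 0.

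Of 50 genes for cytosolic ribosomal proteins at such intervals, 20 (40%) had a member, and 12 of the 20 were the farther partner only. Their 19 members had a median signal of 183.7, and 13 were in both thresholded lists. The 4 strongest were rpl-20 (575.6), rpl-15 (462.6, with 219.2 and 234.0 in the replicates), rps-1 (452.4, with 249.4 and 204.9) and rpl-12 (348.5, with 163.1 and 183.4). Of these 4 rpl-12, 43 bp from its summit, rps-1, at 264 bp, and rpl-15, at 349 bp, were nearer than their partners lin-54, ifet-1 (a translational repressor that binds eIF4E) and K11H12.8. The rps-14/rpl-36 interval, with ribosomal protein genes on both sides, had a member of 108.7 (53.9 and 65.8), 265 bp from rps-14 and 398 bp from rpl-36. Translation factors had 7 of 21 (33.3%), all but 2 of them as the nearer gene. Among them were iff-2, an eIF5A gene, with 261.2 (143.0 and 133.5) at 75 bp, eef-1B.1 with 238.3 (135.8 and 102.3) at 16 bp, eef-2 with 219.1 (146.2 and 94.7) at 23 bp and eef-1G with 192.6 (107.7 and 81.5) at 14 bp. All 4 act in protein synthesis and had their summits within 75 bp of the start.

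Of 40 genes for heat shock proteins, chaperones and cyclophilins, 15 (37.5%) had a member, 9 as the farther partner only, with a median signal of 205.7. Besides the hsp-70 pair, hsp-60, hsp-90 and cct-8, the list held hsp-110, opposite the proteasome lid gene rpn-3, with 337.9 (185.8 and 136.5), 248 bp from hsp-110 and 196 bp from rpn-3. The J-domain co-chaperone gene dnj-13 had 328.2 (187.0 and 136.8) at 192 bp, and cct-1, opposite the Dishevelled gene mig-5, had 299.7 (172.8 and 138.8) at 244 bp. TTCNNGAA was in the windows of 7 of the 15 chaperone members, against 31 of all 273, and this pattern was added after the data had been seen. The 2 members at F44E5.4/F44E5.5 are both among the 15 and share an interval. The proteasome list had 4 of 22 genes (18.2%), with rpn-9 at 94.2 (49.999 and 33.2) after rpn-3 and then rpt-6 at 85.1 and 81.1.

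Respiratory chain genes had 11 of 36 (30.6%), 7 of them farther only, with a median signal of 137.0. The strongest were cox-5B, a cytochrome c oxidase subunit gene, with 253.9 (152.1 and 114.0) at 28 bp and opposite the alpha-tubulin gene tba-1, and atp-1, an ATP synthase subunit gene, with 241.8 (134.8 and 99.985) at 26 bp. They were followed by mev-1, a succinate dehydrogenase subunit gene, with 169.1 (114.8 and 55.1), and ndub-8, of complex I, with 155.1 (92.9 and 55.2). In mev-1 and ndub-8 replicate 1 was the higher by more than the SD of the log2 ratio. Mitochondrial ribosomal proteins had 6 of 31 (19.4%), led by mrps-7 with 174.0 (106.7 and 60.2), mrps-35 with 166.4 (107.5 and 49.5), mrpl-12 with 159.3 (86.3 and 71.8) and mrpl-18 with 116.1 (92.5 and 34.3). Replicate 1 was higher than replicate 2 in these 4 as well. In the weaker members of this list replicate 2 was the higher one, and the weaker respiratory chain members went both ways. Among all matched members replicate 1 was higher at 173 of 265, so this order was not particular to these lists.

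Membrane trafficking genes had 14 of 55 (25.5%), with a median signal of 130.1. The strongest were sec-61.G and sec-61.B, subunit genes of the translocon of the endoplasmic reticulum, with 339.1 (168.6 and 179.0) and 228.0 (118.0 and 106.6), the adaptin gene apb-1 with 215.6 (148.2 and 81.6) and the syntaxin gene syx-5 with 211.9 (99.4 and 112.8). Splicing factors had 5 of 27 (18.5%), with prp-19 at 274.5 (150.9 and 124.0), prp-40 at 147.5 (79.7 and 78.0), sftb-6 at 139.4 (57.7 and 75.5) and prp-8 at 81.2 (53.7 and 34.0). The single tRNA synthetase of 15 (6.67%) was ears-2.

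Histone genes had 6 of 64 (9.38%), close to the share of all genes. The H2A.Z gene htz-1 had 188.8 (109.2 and 80.4). The his-67/his-68 interval had 151.7 (65.9 and 82.4) and the his-35/his-41 interval 90.2 (43.5 and 49.2), with a histone gene on both sides. Histone genes are present in near-identical copies, and how reads that match several copies were treated is not stated, so these values are uncertain. Nuclear hormone receptors had 4 of 64 (6.25%), nhr-47 with 199.9 (110.4 and 84.4), opposite dnj-19, then nhr-142 with 102.2, nhr-68 with 89.9 and nhr-15 with 73.8. Only nhr-47, 11 bp from the summit, was the nearer gene.

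Chemoreceptors, a large family of receptors for odours and tastes, had 5 of 359 (1.39%). Among them were sri-5, opposite the splicing gene rsr-1, with a signal of 221.5, sre-1 with 105.8 and srt-11 with 96.3. Collagens had 2 of 48 (4.17%), col-71 with 200.5 and col-38, opposite rpl-5, with 98.2. F-box proteins had 2 of 112 (1.79%), fbxb-85 with 250.3 and fbxa-90, opposite the E2F gene efl-1, with 178.8. C-type lectins had 0 of 93, and homeobox genes named ceh 0 of 10.

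Few listed genes of the tissues in which MAB-9 is known to act lay at divergent intervals. They were 0 of 22 autosomal hindgut and male tail regulators, 2 of 23 autosomal motor neuron genes and 2 of 21 autosomal pan-neuronal and synaptic genes, against 33.6% of all 17242 autosomal protein-coding genes. No gene of these 3 lists had a member. T-box genes had 0 of 6, and mab-9 itself was not a gene of any member. Of 5 heterochronic and L1 arrest genes at such intervals 1 had a member, lin-46, with 63.5 (34.7 and 42.3), 763 bp away and the farther partner. With so few genes at intervals these counts say little about the lists.

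Small RNA genes were rare beside members and beside the other promoter peaks. No tRNA gene lay within 200 bp of any of the 273 summits (exact 95% interval up to 1.34%). Of the 407 other promoter peaks 4 had one (0.268 to 2.50%), and the intervals overlap. snoRNA genes lay near 3 members (1.10%), against 12 other promoter peaks (2.95%), and the exact 95% intervals of 0.227 to 3.18% and 1.53 to 5.09% overlap. The 3 members were tmem-107/rps-26 (183.7, beside F39B2.14), let-70/klc-1 (165.7, beside M7.15) and attf-2/F09G2.2 (110.2, beside F09G2.14). An snRNA-class gene, the spliced leader gene sls-2.8, lay between the starts of tim-1 and Y75B8A.23 (145.4), and cel-mir-5549 between those of eef-1A.1 and rfc-4 (159.9, with 69.1 and 92.8). piRNA genes lay near 2 members (0.733%) and 4 other promoter peaks (0.983%). Other noncoding RNA genes lay near 33 members (12.1%) and 52 other promoter peaks (12.8%).

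The T-box site AGGTGTGA was in none of the 273 windows that reach 100 bp to each side of the member summits (0 of 273, which allows a share of up to 1.34% by the exact binomial 95% interval). It was in 2 of 407 windows (0.491%) at other promoter peaks and in 6 of 2514 (0.239%) at the midpoints of divergent intervals without a peak. Of the 6-mers within it, AGGTGT was in 14 member windows (5.13%), against 5.16% at other promoter peaks and 5.01% at intervals without a peak. For GGTGTG these were 14 windows (5.13%), against 6.14% and 5.57%, and for GTGTGA 24 windows (8.79%), against 8.85% and 6.92%. For these 3 the shares were close in the 3 sets. All patterns were searched on both strands, and a match is a description of the letters only.

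Among the other patterns the 6-mer ACGCAG, the GC box GGGCGG and the GAGAGAGA repeat were more frequent at members than at intervals without a peak. ACGCAG, a 6-mer singled out from earlier results of these data, was in 55 of 273 member windows (20.1%, exact 95% interval 15.6 to 25.4%), 21.9% of other promoter windows and 5.81% of windows in intervals without a peak (4.93 to 6.79%). GGGCGG was in 12.8% (9.09 to 17.4%), 9.58% and 4.77% (3.97 to 5.68%). GAGAGAGA was in 16 members (5.86%, 3.39 to 9.34%), in 9.83% of other promoter windows (7.11 to 13.1%) and in 1.67% of intervals without a peak (1.21 to 2.25%). The members' share of GAGAGAGA was the lower one of the peak sets, with overlapping intervals. ACGCAG was picked from these same data, so its higher share at peaks is a description and no independent result. Windows without a peak lie at midpoints and not at summits. Their mean GC was 33.9%, against 42.5% at members, and the part of GC in these shares was not tested.

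Patterns rich in A and T went the other way. TGATAA, the core of GATA factor sites, was in 10.3% of member windows (6.92 to 14.5%), 8.35% of other promoter windows and 20.2% of intervals without a peak (18.7 to 21.8%). TATAAA was in 15.8% (11.6 to 20.6%), 9.58% (6.90 to 12.9%) and 26.9%, TTTTTTTT in 13.6%, 10.1% and 23.9%, and TTTCAG, the splice acceptor consensus, in 20.1%, 20.4% and 32.4%. TTCNNGAA did not separate the sets, with 11.4%, 9.58% and 12.1%. GC content moves with all of these, and its part was not tested. The remaining patterns, CACGTG (5.13%), CAGCTG (6.23%), AGGTCA (2.56%), TGACGTCA (1.47%) and TGACTCA (1.83%), had exact intervals in members that overlap those of the other promoter peaks. In them the counts were 17 members or fewer.

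Members that held ACGCAG had a median signal of 156.5 (82.9 in replicate 1 and 72.7 in replicate 2), against 130.9 (68.5 and 61.2) for the 218 without it, and 39 of the 55 were in both thresholded lists. The order was the same in both replicates, and no test was run. Higher medians with a match were not particular to ACGCAG. They were 160.0 with CAGCTG against 135.4 without it, 156.5 against 135.3 for CACGTG, 169.6 against 135.5 for AGGTCA, 153.6 against 135.3 for TTTCAG and 151.7 against 133.3 for GGGCGG. For GAGAGAGA the medians were 131.2 with and 135.9 without a match. The count of overlapping matches was 1 in 10 of the 16 members with GAGAGAGA and reached 17 at vps-25/toe-4. In these 16 the nearest match was a median of 34.5 bp from the summit and within 50 bp in 11. Read on the strand of the nearer gene the repeat was TC in 11, GA in 4 and both in 1.

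The summits were rich in G and C in a narrow stretch. Mean GC over the same windows was 42.5% ± 7.21 (SD, n = 273) at members, 43.7% ± 7.48 (SD, n = 407) at other promoter peaks and 33.9% ± 6.45 (SD, n = 2514) at the midpoints of intervals without a peak. In tiles of 21 bp the members reached 52.2% at the summit, against 50.4% at other promoter peaks and 34.4% at the midpoints. At 120 bp to the left and right of the summit the members fell to 31.8% and 31.1%, against 36.8% and 36.3% at the other promoter peaks and 34.1% and 33.8% at the same distance from the midpoints. At 200 bp they were back at 36.5% and 37.03%. The profile of the members had a peak flanked by shoulders lower than in either other set. Midpoints are not aligned on a sequence feature, so their mean profile can hide local peaks and dips of single intervals.

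**Figure D5:**
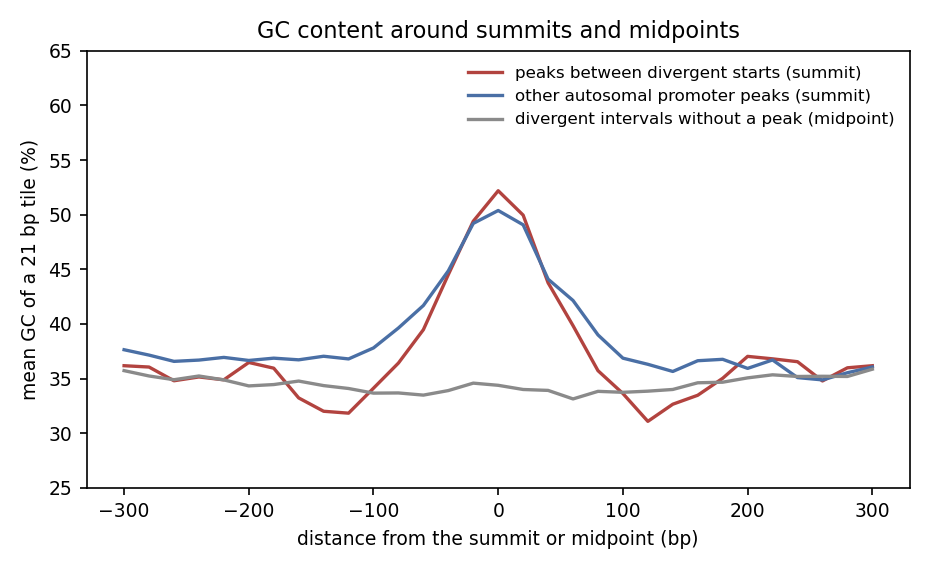
Mean GC of 21 bp tiles (y, percent) by distance from the peak summit, or from the midpoint for intervals without a peak (x, bp, along the plus strand), for the 273 members, 407 other autosomal promoter peaks and 2514 intervals. The members peak at 52.2% and dip to 31.8% and 31.1% at 120 bp on either side. The line of the midpoints is flat, but midpoints are not aligned on a sequence feature.

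Among the 3 groups with the most members mean GC differed by less than its SD. Windows of members with a ribosomal protein gene had a mean GC of 40.2% ± 4.31 (SD, n = 19), with 4 holding ACGCAG and 0 GAGAGAGA, and those with a chaperone gene 43.5% ± 5.83 (SD, n = 15), with 2 holding ACGCAG. Membrane trafficking members had 43.2% ± 6.89 (SD, n = 14), with ACGCAG in 3 and GAGAGAGA in 3. The 5 histone members were higher, at 47.6% ± 7.32 (SD, n = 5), with GGGCGG in 3.

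The peak lists differed in which divergent intervals passed. In the other pooled list 281 peaks met the rule, 22 of them without a conservative peak, among them a peak of 88.8 between the ribosomal protein genes rps-10 and rpl-24.1 and a peak of 71.6 between hsp-6, a mitochondrial hsp-70 gene, and C37H5.5. These 2 were picked out after their values were seen. The list of replicate 1 had 199 peaks that met the rule, 7 of them without a conservative peak, and that of replicate 2 had 215 and 19. All ranked pooled peaks with a discovery rate of at most 0.01 that met the rule, 273 in number, were conservative peaks. Thresholded lists are cut at that rate, so this match is a check of the lists and no further result.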

How the data were processed

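The data are peak lists of tagged MAB-9 from anti-GFP immunoprecipitation in L1 larvae, from 1 group of 2 replicates. Per the labels the build is ce11. Aligner and peak caller, with their versions, are not given in the sources used here. Each peak's signal was deposited by the authors, in units that are not stated. The deposited ranked lists hold the −log10 of the irreproducible discovery rate, per the file headers, and thresholded peaks have a rate of at most 0.01. No file gives read counts, so depth is unknown.

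Starts came from Ensembl release 115, and RefSeq's assembly of this build gave the sequence. Matched peaks share 50% or more of the shorter one's length. For replicate signals, the replicate's peak also had to overlap that peak more than any other. Patterns (17, with TTCNNGAA added after the data had been seen) were searched up to 100 bp to each side of summits, or of midpoints of divergent intervals without any peak, and printed sequences stop at the nearest start. Intervals on shares are exact binomial (Clopper-Pearson), at 95%, and treat peaks as independent. No tests between sets of peaks were run, since the 2 replicates form 1 group.

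The members, the 21 gene lists and the patterns were chosen with earlier results of these data known. Named genes are those of the 15 strongest members, up to 4 members of each list, intervals with the shortest and longest distances, peaks next to each limit, and members whose genes share a list. Intervals with 2 members, and genes of members beside small RNA genes, were named in addition. A result that falls under this rule is not reported here. Alternatives were the other pooled list, each replicate's list, a higher signal, gene starts, a shorter limit, another overlap and another window; 1 peak per interval was added after the data had been seen. The code was tested on simulated data. Python 3.11.15, NumPy 2.4.6, SciPy 1.17.1 and matplotlib 3.10.9 were used.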

Additional observations from a re-analysis of the deposited data

How the results depend on the processing

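The number of members stayed within 1.5 times of 273 under all alternatives run, from 190 to 281. With each replicate's list alone the share of intervals with a member was 6.68% to 7.19%, the share of members with both starts within 500 bp 59.3% to 60.9%, the median signal 73.2 to 86.3 and the mean GC 42.6% to 43.2%. With peaks at or above the list's median signal these were 6.40%, 60%, 163 and 43%, and 84.7% of members were in both replicates' lists. With both starts within 1000 bp the share of intervals was 8.48%, that within 500 bp 72.8% and that with GAGAGAGA 4.15%. In windows of 50 bp to each side GAGAGAGA was in 3.66% of members and GC was 47.8%, since a shorter window holds fewer bases around a GC-rich summit. With 1 peak per interval, chosen after the data had been seen, 59.5% had both starts within 500 bp. The fewer peaks of the single lists and of the higher signal lower the share of intervals by construction. The median signal of a single list is taken from that replicate's own values. At matched members these had medians of 71.5 and 65.3, against 135.9 for the pooled values of all members. A higher signal limit raises the median signal by construction. The cause of the other changes was not tested. The other values moved by less than the SD between the replicates' own lists, which rests on 2 values. No paired analysis was possible because there is 1 group. Depth is unknown, so a divergent interval without a peak may hold binding too weak to pass.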
